A study of Mus musculus with 3 samples.

Results

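The collagen family was described in bulk RNA sequencing counts from the lungs of 3 male C57Bl/6 mice. Members were the protein-coding genes whose symbol is Col, a number, the letter a and a number, and 44 of the 53342 genes in the table met this rule. Every mouse had been given Mycobacterium abscessus microparticles into the trachea, equal to 1000000 bacteria in 50 µL, to induce granulomas. Each also received 5 µg of MIA-602, which blocks the receptor for growth hormone-releasing hormone, under the skin every day for 3 weeks. All 3 mice therefore form 1 group, called mouse 4, 5 and 6 after their labels. Challenged mice without MIA-602 and unchallenged mice were not analysed here, so no value below shows an effect of the particles or of the drug. The labels give no age. The question that the values can answer is which collagens the treated, challenged lung transcribes, at what level, and how far 3 such lungs differ.

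Collagens are secreted or membrane proteins in which 3 chains wind around each other, a fold that needs glycine to recur with a fixed spacing along the chain. Fibrillar collagens give tissue its tensile strength, type IV collagens form the sheet-like network of basement membranes, and type VI collagens form beaded filaments around cells. In the lung, fibroblasts make most fibrillar collagen, and the thin shared basement membrane between alveolar epithelium and capillary holds type IV chains. Fibril-associated, transmembrane, network-forming and anchoring collagens link these structures to each other and to cells.

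The glycine repeat is written in the coding sequence as a GGN codon recurring every 3 codons, so that 1 triplet here means a GGN codon and the 2 codons after it. The longest unbroken run of such triplets was read from the longest complete coding sequence of each gene in the GENCODE M21 transcripts. All 44 collagen genes held a run of at least 20 triplets, against 20 of 21389 other protein-coding genes (0.0935%). Collagen symbols are given to genes that encode this repeat, so the count describes the family and is no independent test of it. The members shown here are the leading fibrillar genes, a chain from each of 2 type IV networks, and the pair of genes that later differ most between the mice among members with at least 10 counts per 1000000. Each line gives the first 54 coding bases of the longest run, with the GGN codons in capitals.
Col1a1: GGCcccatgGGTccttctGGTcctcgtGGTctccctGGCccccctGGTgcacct
Col3a1: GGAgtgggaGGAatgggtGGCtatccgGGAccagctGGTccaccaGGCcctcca
Col4a1: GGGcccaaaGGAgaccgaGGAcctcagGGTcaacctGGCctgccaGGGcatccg
Col4a4: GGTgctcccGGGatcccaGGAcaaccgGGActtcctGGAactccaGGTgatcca
Col8a2: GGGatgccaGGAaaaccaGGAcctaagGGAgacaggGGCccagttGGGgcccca
Col17a1: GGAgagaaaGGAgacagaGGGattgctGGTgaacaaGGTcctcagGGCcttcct
Run length followed the class, as every fibrillar gene had a run of at least 216 triplets and no other collagen gene one above 113. Col1a1 held 338 triplets without a break, Col1a2 and Col5a2 339 each, and Col3a1 344. In Col4a1 the longest run was 40 triplets and the repeat was split into 22 runs of at least 6 triplets, and in Col4a4 it was 45 triplets and 27 runs. Col8a2 had 60 triplets in its longest run and the transmembrane collagen Col17a1 56. Among the fibrillar members, Col27a1 and Col24a1 had shorter runs of 217 and 216 triplets.

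Depth was 43845715 counts for mouse 4, 35674761 for mouse 5 and 31579465 for mouse 6. Levels are given as counts per 1000000 (CPM) scaled with TMM factors, as the mean ± SD over the 3 mice or as the value in mice 4, 5 and 6 in that order. The alveolar type 2 markers that identify lung (Sftpc, Sftpb, Abca3, Lamp3 and Slc34a2) were all detected, with a summed level of 18920, 26270 and 23450 CPM. Mouse 4 stood apart from the others in several marker lists. Skeletal muscle markers summed to 5327, 1968 and 1688 CPM and basal and stratified epithelium markers to 381.3, 143.6 and 123.2 CPM. Club cell markers were lowest in mouse 4, with sums of 8989, 24520 and 21710 CPM. Results that rest on mouse 4 are marked below. These are bulk samples, in which fewer cells of a type and less RNA per cell cannot be told apart.

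Collagen transcripts made up 0.451% ± 0.0169 of all counts (SD, n = 3), at 0.467%, 0.452% and 0.433% in mice 4, 5 and 6. Of the 44 genes, 34 reached 1 CPM in every mouse, against 28.5% of all 53342 genes. That share includes genes that code for no protein, so it is not a like background for these protein-coding members. Of the members, 25 had a mean of at least 10 CPM and 10 a mean of at least 100 CPM. The 5 genes with the most counts, Col3a1, Col4a1, Col1a1, Col4a2 and Col1a2, held 70.5% ± 1.03 of the collagen counts. By class, in counts that are not divided by transcript length, fibrillar genes took 49.0% ± 2.57, type IV genes 33.1% ± 2.62 and type VI genes 11.03% ± 0.320. The remaining classes held 2.03% ± 0.272 for fibril-associated genes, 2.03% ± 0.0747 for types XV and XVIII, 1.81% ± 0.229 for transmembrane genes, 0.570% ± 0.0566 for the anchoring fibril and other genes, and 0.434% ± 0.151 for types VIII and X.

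**Figure D1:**
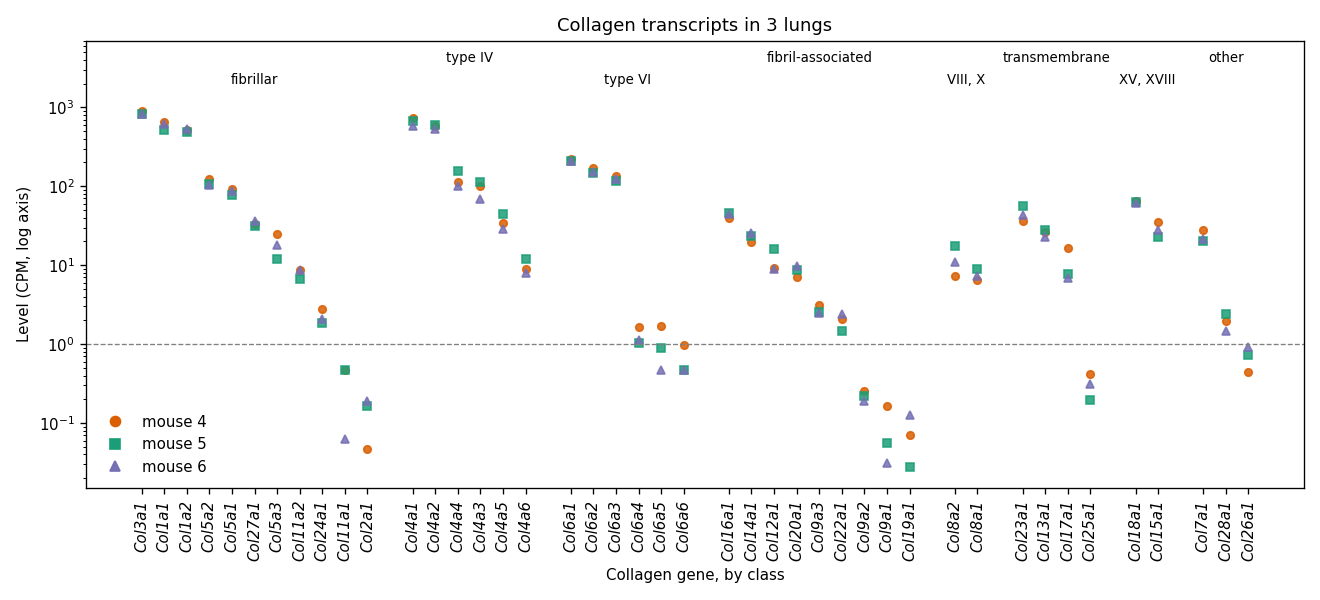
Level of each collagen gene with any counts (CPM, log axis) in mouse 4, 5 and 6, 1 point per mouse, grouped by class and ordered by mean within it; the dashed line marks 1 CPM. Levels span from 849 CPM for Col3a1 to under 0.1 CPM for Col9a1 and Col19a1, and the 3 points of Col3a1, Col1a2 and Col6a1 nearly coincide.

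Type I and III transcripts held most of the fibrillar counts. Col3a1, which forms the finer fibrils of distensible tissues (ENSMUSG00000026043, mm10 chromosome 1, 45311538 to 45349706), stood at 902, 827 and 817 CPM (849 ± 46.4). Col1a1, the major chain of type I collagen (ENSMUSG00000001506, chromosome 11, 94936224 to 94953042), stood at 644, 512 and 609 CPM (588 ± 68.4), and its partner chain Col1a2 at 520.3, 481 and 530.2 CPM (511 ± 25.8). Mouse 5 was the lowest for both type I chains and mouse 4 the highest for Col3a1, with differences of at most 1.26-fold. The type V chains, which sit inside type I fibrils and help to set their diameter, stood at 123, 108 and 105 CPM for Col5a2 and 92.7, 77.8 and 86.9 CPM for Col5a1. Per kilobase of all annotated exons these are 11.7 ± 0.992 and 10.1 ± 0.882 CPM, against 89.6 ± 10.4 for Col1a1. Col5a3, the remaining type V chain, stood at 24.7, 12.1 and 17.8 CPM, 2.05-fold higher in mouse 4 than in mouse 5. Col27a1, a fibrillar collagen with a shorter helix, had 32.8, 31.7 and 36.0 CPM. Col24a1 had a mean of 2.22 ± 0.502 CPM. Of the fibrillar chains known from cartilage, the type XI chain Col11a2 was detected in every mouse, with 376, 242 and 275 counts (8.03 ± 1.16 CPM). Col11a1 had 20, 17 and 2 counts and Col2a1, the main collagen of cartilage, 2, 6 and 6 counts. Over the summed libraries Col11a1 and Col2a1 stood at 0.351 CPM with a 95% exact Poisson interval of 0.25 to 0.480 and 0.126 CPM with an interval of 0.0689 to 0.211, which cover counting error only. Of 8 cartilage markers 1 reached 1 CPM in every mouse, Chad at 39.8 ± 4.30 CPM, and Acan, the core proteoglycan of cartilage, had 0 counts in all 3 libraries.

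All 6 type IV genes were detected, and per kilobase of all exons Col4a1 (88.4 ± 10.2 CPM) and Col4a2 (86.2 ± 4.96) lay above Col4a4 (11.6 ± 2.82) and Col4a3 (9.54 ± 2.34) in every mouse. Col4a1 (ENSMUSG00000031502, chromosome 8, 11198423 to 11312826) and Col4a2 (ENSMUSG00000031503, chromosome 8, 11312805 to 11449287), whose chains are in nearly all basement membranes, stood at 730, 670 and 579 CPM and at 581, 597 and 533.5 CPM. The chains of another network, known from the alveolar and glomerular basement membranes, stood at 112, 157 and 100.2 CPM for Col4a4, 102, 115 and 69.3 CPM for Col4a3 and 34.2, 43.9 and 28.9 CPM for Col4a5. Col4a6, which joins Col4a5 in a further network, had 8.96, 11.9 and 7.92 CPM. All 6 genes were lowest in mouse 6, where 29.9% of all 17636 genes tested for spread were lowest, and 5 of them, all but Col4a1, were highest in mouse 5, where 36.4% of all genes tested were highest. The summed level of Col4a3, Col4a4 and Col4a5 was 247, 315 and 198 CPM, against 1311, 1267 and 1112 CPM for Col4a1 and Col4a2 together. Markers of the alveolar type 1 cell, which lies on this membrane, summed to 3084, 4332 and 2922 CPM, with 6 of 6 detected, 5 highest in mouse 5 and 4 lowest in mouse 6. Endothelial markers summed to 1152, 1678 and 1209 CPM, with 6 of 6 highest in mouse 5, 4 lowest in mouse 4 and 2 lowest in mouse 6. Fibroblast markers (8 of 8) and alveolar type 2 markers (5 of 5) were also highest in mouse 5, with 5 and 1 of them lowest in mouse 6. The part of any of these in the type IV values was not tested.

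The type IV genes lie in the genome as 3 head-to-head pairs. Col4a1 and Col4a2 start from opposite strands and overlap by 22 bases, Col4a4 and Col4a3 on chromosome 1 are 71 bases apart, and Col4a6 and Col4a5 on the X chromosome 1308 bases apart. Because no source used here states whether strand was used in counting, reads in the overlap of Col4a1 and Col4a2 cannot be told apart. Of these pairs, 2 have both genes' starts within 1 window, and their windows are shown with that of Col3a1, the member with the most counts, from which they differ in base composition. Each is a RefSeq window of 300 bases (GRCm38.p6), 5′ to 3′ on the strand of the named gene, with capitals where any of 3 promoter motifs was found on either strand. These were CCAAT, a motif bound by NF-Y, then the motif TATAAA near many start sites, and finally the Sp1 motif GGGCGG. The windows lie as follows: Col4a1 at chr8:11312777-11313076, minus strand, Col4a4 at chr1:82586800-82587099, minus strand, and Col3a1 at chr1:45311288-45311587, plus strand.
Col4a1: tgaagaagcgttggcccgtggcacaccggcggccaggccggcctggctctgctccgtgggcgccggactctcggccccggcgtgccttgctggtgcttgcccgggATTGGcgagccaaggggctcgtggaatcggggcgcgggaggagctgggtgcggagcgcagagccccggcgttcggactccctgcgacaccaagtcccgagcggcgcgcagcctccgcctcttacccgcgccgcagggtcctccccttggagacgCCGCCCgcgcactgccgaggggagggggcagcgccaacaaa
Col4a4: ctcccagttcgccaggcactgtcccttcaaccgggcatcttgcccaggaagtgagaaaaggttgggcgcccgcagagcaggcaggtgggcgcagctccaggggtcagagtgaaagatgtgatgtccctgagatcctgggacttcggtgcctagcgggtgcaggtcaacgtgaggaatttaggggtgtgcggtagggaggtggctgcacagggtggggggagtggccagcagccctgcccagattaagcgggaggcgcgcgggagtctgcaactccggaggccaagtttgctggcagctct
Col3a1: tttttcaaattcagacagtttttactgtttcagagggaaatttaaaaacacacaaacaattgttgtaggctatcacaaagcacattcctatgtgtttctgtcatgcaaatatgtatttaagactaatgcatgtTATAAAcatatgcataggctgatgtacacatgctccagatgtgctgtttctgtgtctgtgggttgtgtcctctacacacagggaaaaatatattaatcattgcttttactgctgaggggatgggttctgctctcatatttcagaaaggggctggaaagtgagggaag
The Col4a1 window shares 78 bases with that of Col4a2 and held 37 CG dinucleotides, 1 CCAAT and 1 GGGCGG. The Col4a4 window, which also covers the start of Col4a3, held 14 CG dinucleotides and none of the 3 motifs, and the Col3a1 window held 1 TATAAA and no CG dinucleotide. Windows were found for 35 of the 44 genes, 38 windows in all. GGGCGG was in 23 of these 38 (60.5%) and in 35.7% of the 32851 windows of all genes, CCAAT in 13 (34.2%) against 37.4% and TATAAA in 5 (13.2%) against 13.6%. The median number of CG dinucleotides was 11.5 in the collagen windows and 7.0 in all windows. The part of this base composition in the GGGCGG share was not tested. A match is a run of letters and does not show that a factor binds there.

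Most type VI counts came from Col6a1, Col6a2 and Col6a3. Col6a1, Col6a2 and Col6a3, which build the beaded filaments around cells, stood at 221, 209 and 208 CPM, at 171, 146 and 152 CPM and at 134.5, 117 and 123 CPM. Col6a1 had 1.06-fold between the highest and the lowest mouse. The alternative chains Col6a4, Col6a5 and Col6a6, which lie side by side on chromosome 9, had means of 1.27 ± 0.333, 1.01 ± 0.609 and 0.639 ± 0.291 CPM. All 6 type VI genes were highest in mouse 4, where 33.4% of all genes tested were, for Col6a5 with 72, 32 and 15 counts and for Col6a6 with 42, 17 and 15 counts. Skeletal muscle markers (8 of 8) and basal and stratified epithelium markers (7 of 7) were also highest in mouse 4. So were most Schwann cell and nerve (4 of 5), macrophage (4 of 5) and adipocyte markers (3 of 5). The part of any of these in the type VI values was not tested.

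Fibril-associated collagens bind to the surface of fibrils. Col16a1 had the most counts of them, at 39.8, 45.9 and 44.2 CPM, followed by Col14a1 at 19.9, 23.3 and 25.5 CPM and Col12a1, a collagen of mechanically loaded tissue, at 9.31, 16.2 and 9.05 CPM. Mouse 5 was the high one for Col12a1, while mouse 4 was the lowest for Col16a1 and Col14a1. Col20a1 had a mean of 8.47 ± 1.34 CPM and Col22a1, which is found at muscle-tendon junctions, 1.98 ± 0.474. Col22a1 had 2.09, 1.47 and 2.40 CPM, from 90, 53 and 76 counts. The part of the skeletal muscle markers, highest in mouse 4, in these values was not tested. Of the type IX chains, known from cartilage, Col9a3 was detected in every mouse with 134, 91 and 78 counts (2.70 ± 0.360 CPM), while Col9a2 had 11, 8 and 6 counts and Col9a1 7, 2 and 1. Col19a1 had 3, 1 and 4 counts.

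Collagens of cell surfaces and basement membrane zones included Col18a1, the precursor of endostatin in vascular and epithelial basement membranes, at 64.3, 63.7 and 60.9 CPM, the smallest spread of all members with counts (1.06-fold), and the related Col15a1 at 34.7, 22.8 and 27.8 CPM. Of the transmembrane collagens, Col23a1 had 36.0, 56.6 and 43.0 CPM, Col13a1, which is found at cell adhesion sites, 26.2, 27.8 and 22.7 CPM, and Col25a1 18, 7 and 10 counts. Col17a1, a component of the hemidesmosomes of stratified epithelium, stood at 16.5, 7.74 and 6.84 CPM, and Col7a1, which forms the anchoring fibrils under such epithelium, at 27.6, 20.05 and 21.8 CPM. Mouse 4 was the highest for both, as it was for all 7 markers of basal and stratified epithelium, among them Krt13 at 142, 53.1 and 46.3 CPM and Krt5 at 88.6, 34.0 and 28.1 CPM. The part of these cells in the Col17a1 and Col7a1 values was not tested. Col8a2, a network collagen of vessel walls and other sheets, had 7.20, 17.5 and 10.9 CPM, lowest in mouse 4 and highest in mouse 5, and its partner Col8a1 6.55, 8.82 and 7.25 CPM in the same order. Col28a1 and Col26a1 had means of 1.94 ± 0.448 and 0.692 ± 0.238 CPM. Col10a1, the collagen of hypertrophic cartilage, had 0 counts throughout. A count of 0 still allows a level of up to 0.0684 CPM in mouse 4, 0.0841 CPM in mouse 5 and 0.0950 CPM in mouse 6, the worth of 3 counts.

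The spread between mice was tested for the 37 members that passed the filter on low counts, with 7 left out (Col11a1, Col25a1, Col9a2, Col2a1, Col9a1, Col19a1 and Col10a1). In edgeR's quasi-likelihood fit, none of the 37 varied more than the trend for its level at a Benjamini-Hochberg adjusted p under 0.05, nor did any of the 17636 genes tested (0%), and the smallest adjusted p of a member was 0.955. As no gene at all was called in this fit, the lack of calls is no result about the collagens. At an unadjusted p under 0.05 there were 6 members, Col17a1, Col8a2, Col5a3, Col4a3, Col4a4 and Col23a1, and 867 genes in all (4.92%). Limma and DESeq2 dispersions also called 0 members at the adjusted threshold. Unadjusted p was under 0.05 for 4 members and 850 of all 17636 genes in limma, and for 0 members and 207 genes in DESeq2. With no filter beyond 1 count, where the prior degrees of freedom became infinite, edgeR's fit called Col4a3, Col8a2, Col5a3 and Col17a1, 4 members, and 629 of 30751 genes (2.05%). The median fold between the highest and the lowest mouse was 1.38 for the 37 members and 1.24 for all genes tested, and the median coefficient of variation 15.8% and 11.2%. These medians are not matched for level. Relative to the trend for its level in edgeR's fit, the median log2 spread was 0.282 for the members and -0.286 for all genes tested.

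Spread was uneven within the family. Of the 8 members with the most counts, Col3a1, Col4a2, Col1a2, Col6a1, Col6a2 and Col6a3 had folds between the highest and the lowest mouse of 1.10, 1.12, 1.10, 1.06, 1.17 and 1.15, and Col4a1 and Col1a1 of 1.26 each. In all, 10 of the 37 members lay below the median fold of genes of like level, set in 12 bins of level, where 49.9% of all genes tested did. Another 10 lay above the 90th percentile of genes of like level, where 10% of all genes tested did: Col4a3, Col4a4, Col4a5, Col23a1, Col15a1, Col5a3, Col8a2, Col12a1, Col17a1 and Col6a5. More than 2-fold separated the highest and the lowest mouse at 6 of the 37 tested members, Col5a3, Col8a2, Col17a1, Col6a5, Col26a1 and Col6a6, and at 7.18% of all genes tested. Each of these 6 rests on mouse 4, which was the highest for Col5a3, Col17a1, Col6a5 and Col6a6 and the lowest for Col8a2 and Col26a1. Without mouse 4 the count was 0, as between mice 5 and 6 none of the 37 tested members was over 2-fold apart, and 2.18% of all genes tested were. Between mice 4 and 5 there were 4 such tested members (4.75% of all genes) and between mice 4 and 6 there were 4 (3.47%).

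**Figure D2:**
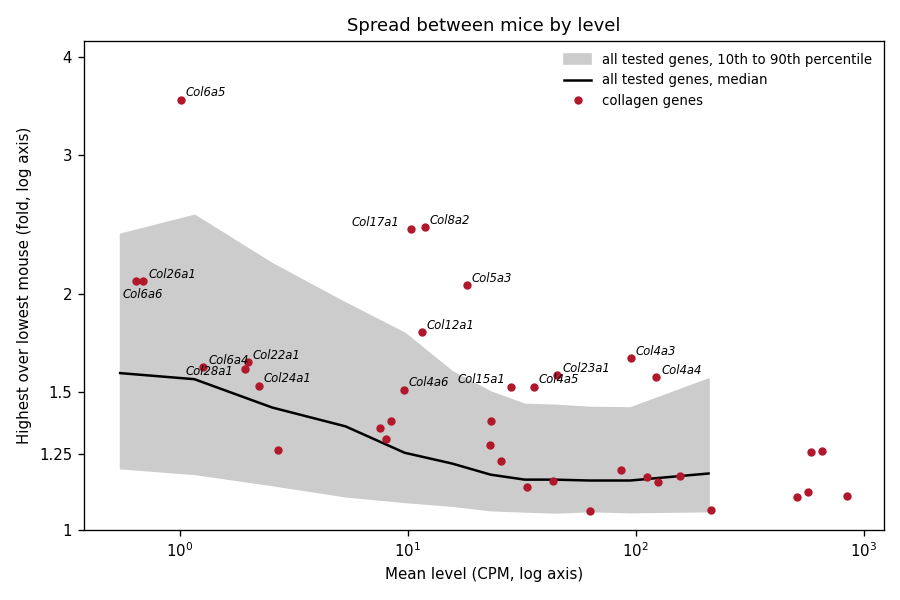
Fold between the highest and the lowest of the 3 mice (log axis) against mean level (CPM, log axis), with collagen genes as red points, named where over 1.5-fold, the median of all 17636 genes tested as a line and their 10th to 90th percentile as a grey band, by bin of level up to the median of the highest bin. Col8a2, Col17a1, Col5a3 and Col6a5 are among the collagen genes above the band, and the 5 collagens with the most counts lie near the bottom of the plot with 1.10- to 1.26-fold.

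The order of the mice differed by class. Of the 37 tested members 19 were highest in mouse 4, where 33.4% of all genes tested were, 12 in mouse 5 (36.4%) and 6 in mouse 6 (30.2%). The lowest mouse was mouse 4 for 7 of them (33.3% of all genes tested), mouse 5 for 14 (36.8%) and mouse 6 for 16 (29.9%). Fibrillar genes as a group were lowest in mouse 5, for 7 of the 11 members, and their summed level was 2351, 2059 and 2213 CPM. Fibroblast markers ran the other way, with all 8 highest in mouse 5 and sums of 1433, 2082 and 1408 CPM. Of these, Inmt carried most of the rise of the sum in mouse 5, at 399, 972 and 500.5 CPM. Mfap4 stood at 729, 739 and 612 CPM, Dpt at 136, 154 and 140.0 CPM and Pdgfra at 106, 127 and 93.5 CPM. The lung with the highest fibroblast markers thus had the lowest Col1a1, Col1a2, Col5a1 and Col5a3 but not the lowest Col3a1 or Col5a2, and the part of the fibroblast markers in these values was not tested. Smooth muscle and pericyte markers summed to 463.7, 621.3 and 591.0 CPM, mesothelial markers to 109.1, 96.1 and 77.4 CPM and macrophage markers to 13220, 10560 and 10710 CPM.

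**Figure D3:**
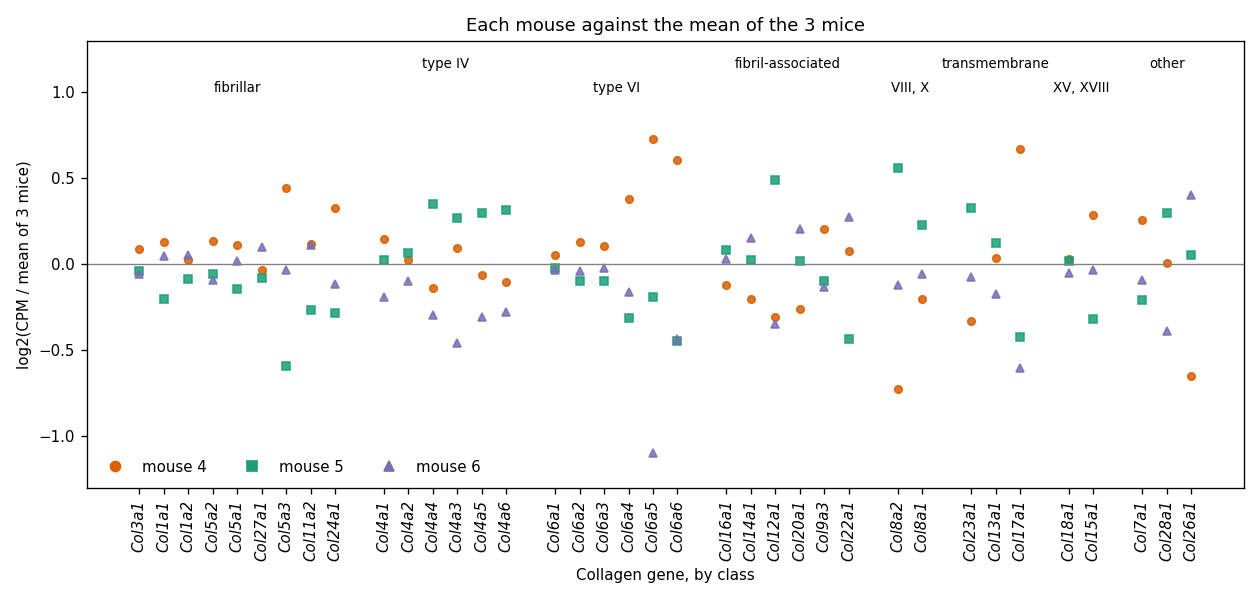
Difference of each mouse from the mean of the 3 mice, as log2 of CPM over that mean, for the 37 tested collagen genes by class, 1 point per mouse. Points of Col3a1, Col1a2 and Col6a1 lie near 0, mouse 5 is above 0 for Col4a3, Col4a4, Col4a5 and Col4a6, and mouse 4 is above 0 for all 6 type VI genes.

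**Figure D4:**
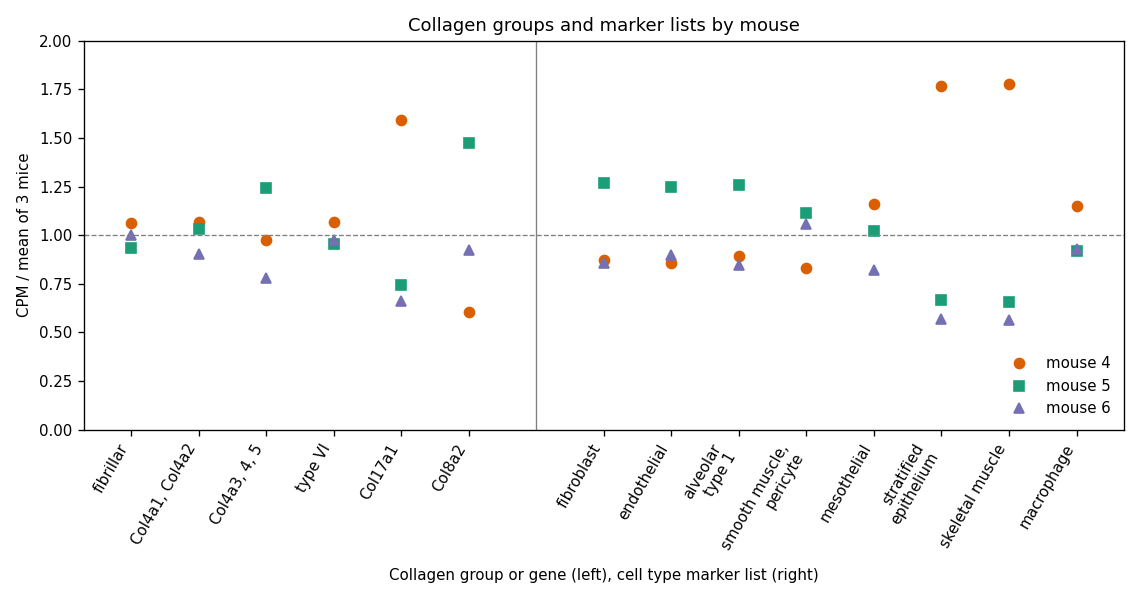
Level in each mouse divided by the mean of the 3 mice, for summed CPM of collagen groups and for Col17a1 and Col8a2 (left) and for summed CPM of cell type marker lists (right), 1 point per mouse. Col4a3, Col4a4 and Col4a5 have mouse 5 highest, as do the fibroblast, endothelial, alveolar type 1 and smooth muscle and pericyte lists. Col17a1 has mouse 4 highest, as do the stratified epithelium, skeletal muscle, mesothelial and macrophage lists.

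Levels of different chains were compared within each mouse after division by transcript length, since longer transcripts give more counts. The choice of length moved some ratios by over 1.5 times. The annotated exons of some genes include those of transcripts that code for no protein. For Col1a2 all annotated exons together covered 12426 bases and those of protein-coding transcripts 5530, and for Col3a1 they covered 9816 and 5564. Per kilobase of all exons, Col1a1 had 2.18 ± 0.165 times the level of Col1a2 (2.342, 2.013 and 2.174 in mice 4, 5 and 6). Per kilobase of protein-coding transcripts, a choice made after these lengths were seen, the ratio was 1.07 ± 0.0811, and per kilobase of the longest transcript 1.04 ± 0.0785. Col3a1 had 0.972 ± 0.0965 times the level of Col1a1 per kilobase of all exons and 1.55 ± 0.154 times by either other length. With 3 mice an exact two-sided test by sign flips has a smallest p of 0.25, so none of the 6 ratios could pass, and the adjusted p over the 6 was at least 0.375 (exact) by each of these lengths.

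Chains of the other types were compared in the same way. Col4a1 and Col4a2 were close, with a ratio of 1.02 ± 0.0800 per kilobase of all exons (1.12, 0.996 and 0.962) and 1.12 ± 0.0874 per kilobase of protein-coding transcripts. Col4a3 had 0.828 ± 0.124 times the level of Col4a4 (0.969, 0.778 and 0.736), and 0.919 ± 0.138 times by protein-coding transcripts. Of the type V chains, Col5a1 had 0.867 ± 0.0605 times the level of Col5a2, and 0.599 ± 0.0418 times by protein-coding transcripts. Col6a1 had 2.60 ± 0.136 times the level of Col6a2, 2.001 ± 0.105 times by protein-coding transcripts and 1.64 ± 0.0858 times by the longest transcript. The ratio of Col6a1 to Col6a2 and that of Col5a1 to Col5a2 lay on the same side of 1 in all 3 mice by every length used, whereas the ratios of Col1a1 to Col1a2, Col4a1 to Col4a2, Col4a3 to Col4a4 and Col3a1 to Col1a1 crossed 1 in at least 1 mouse by at least 1 length.

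**Figure D5:**
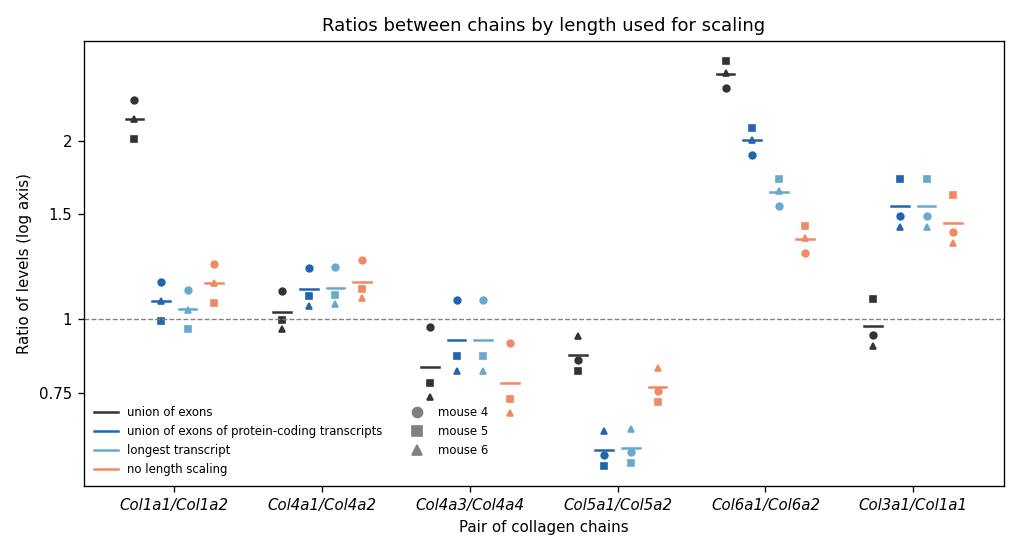
Ratio of the levels of 6 pairs of collagen chains (log axis) in mouse 4, 5 and 6 (circle, square and triangle), with the mean as a bar, by the length used for scaling. For Col1a1/Col1a2, Col3a1/Col1a1 and Col6a1/Col6a2 the points by all exons do not overlap those by any other length. Col5a1/Col5a2 lies below 1 and Col6a1/Col6a2 above 1 in all colours.

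The order of levels per kilobase shared a top set but not a leader. Per kilobase of all exons, Col1a1 (89.6 ± 10.4 CPM per kilobase), Col4a1 (88.4 ± 10.2), Col3a1 (86.5 ± 4.73) and Col4a2 (86.2 ± 4.96) were neighbours whose ranges over the mice overlapped, and Col6a1 (48.6 ± 1.61) and Col1a2 (41.1 ± 2.08) followed without overlap. Per kilobase of protein-coding transcripts, Col3a1 led in all 3 mice (153 ± 8.34). Then came Col4a1 (99.2 ± 11.5), Col1a1 (99.2 ± 11.5), Col1a2 (92.3 ± 4.67) and Col4a2 (88.4 ± 5.09) with overlapping ranges, and Col6a1 (51.9 ± 1.72) and Col6a2 (26.0 ± 2.18) with none. Both lengths put Col1a1, Col3a1, Col4a1 and Col4a2 above Col6a1 in every mouse, and they differ on Col1a2, which lay below Col6a1 per kilobase of all exons.

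Genes that modify and fold procollagen were all transcribed in the same lungs. All 21 genes of procollagen modification and folding reached 1 CPM in every mouse. As no gene of all those tested was called for spread (0%), the lack of calls is no result about these or the following lists. None of the 21 had an unadjusted p under 0.05, and 4.92% of all genes tested did. Their median fold between the highest and the lowest mouse was 1.18, against 1.24 for all genes tested, which covers genes of every level. The median level of the 21 was 43.9, 42.5 and 36.1 CPM in mice 4, 5 and 6. In the bin of all tested genes with a median level of 44.2 CPM the median fold was 1.16. They include P4hb, a subunit of the enzyme that hydroxylates prolines (584 ± 6.77 CPM), Serpinh1, the collagen chaperone (406 ± 40.9), Ppib, a prolyl isomerase (257 ± 10.8), and Colgalt1, which adds galactose to hydroxylysine (159 ± 10.4). Their summed level was 2165, 2156 and 2077 CPM (2133 ± 48.5), while the collagens summed to 4753, 4454 and 4314 CPM. Of 8 genes of propeptide cleavage 6 were detected in every mouse, led by the proteinase Bmp1 at 114 ± 4.80 CPM and its enhancer Pcolce at 82.7 ± 8.06. Pcolce2 stood at 42.0, 83.9 and 42.9 CPM with mouse 5 the highest (unadjusted p = 0.00698, adjusted p = 0.914 in edgeR's quasi-likelihood fit), and Adamts2 stood at 51.3 ± 3.89 CPM. All 6 cross-linking genes were detected, with the transglutaminase Tgm2 at 467 ± 30.2 CPM, the lysyl oxidases Loxl1 at 112 ± 0.720 and Lox at 89.0 ± 13.8, and Loxl2 at 24.2 ± 1.44.

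Proteins that bind or clear collagen were also transcribed. Of the proteoglycans that coat fibrils, biglycan, Bgn, stood at 1016, 1020 and 1040 CPM (1025 ± 13.1), with Prelp at 133 ± 35.3, decorin, Dcn, at 131 ± 15.1 and Ogn at 87.2 ± 30.9. Ogn and Prelp were highest in mouse 5, at 75.4, 122 and 63.8 CPM and 110, 174 and 115 CPM, and these 2 of the 7 had an unadjusted p under 0.05. Of 10 collagen receptors 9 were detected, led by the integrin chains Itgb1 at 640 ± 77.9 and Itga1 at 207 ± 13.7 CPM and the discoidin receptors Ddr2 at 91.8 ± 7.23 and Ddr1 at 90.3 ± 7.67. The genes of uptake and lysosomal breakdown were all detected, with Mfge8 at 304 ± 36.0, the endocytic receptor Mrc2 at 129 ± 3.98, cathepsin K, Ctsk, at 107 ± 22.4 and Pepd at 37.0 ± 0.837 CPM. Apart from Prelp and Ogn, no gene of these 3 lists had an unadjusted p under 0.05 in edgeR's fit.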

How the data were processed

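Gene counts of 3 mouse lung libraries, 1 per mouse, were used. The authors deposited raw counts for Ensembl genes without normalization, made with Trim Galore 0.6.2 and STAR 2.5.2a on mm10 after bcl2fastq 2.17, per the submitters' processing notes. For the counting tool, its annotation and the strand setting, none is given in the sources used here. GENCODE M21 of the same build gave symbols, positions and exon lengths for 53237 of 53342 identifiers (99.8%). Coordinates are 1-based.

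Totals were 31579465 to 43845715 counts. TMM factors for CPM were 0.983, 1.01 and 1.00 (edgeR 4.0.16, R 4.3.3). Spread was tested on genes kept by filterByExpr with an intercept alone. Each gene's quasi-dispersion was compared with the trend of the older robust quasi-likelihood fit (F test, upper tail, prior df 3.88), Benjamini-Hochberg adjusted over all genes tested. The test was also run on counts simulated on the fitted trend. In these every gene had the trend's own dispersion, so that run does not show what the test can call in the real counts. Limma 3.58.1, DESeq2 1.42.0, other scalings, filters and lengths and leaving out each mouse were alternatives. Sequence windows are from RefSeq. Full values are given for members with a mean of 10 CPM, over 2-fold apart or in a chain ratio, and for up to 4 leading genes of the other lists. Members and lists were chosen with earlier results of these data known. The mice are separate animals per the labels, and p-values measure only the spread among them.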

Additional observations from a re-analysis of the deposited data

How the results depend on the processing

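The counts and levels below were recomputed under other settings, changing 1 choice at a time. The number of collagen genes called for spread was 4 with no filter beyond 1 count and 0 under library size alone, DESeq2 size factors, a filter of 1 CPM, the non-robust prior, limma, DESeq2 dispersions and on leaving out each mouse (0 to 0). Calls among all genes went from 0 to 629 with no filter and to 13 without mouse 4. The 6 collagen genes over 2-fold apart became 3 with a filter of 1 CPM and 0 to 4 on leaving out a mouse, 0 being the value without mouse 4. Members detected, 34, ranged from 25 with 1 CPM per kilobase of exon to 34. Their share of counts, 0.451%, was 0.518% of the total without the 25 genes with the most counts, and 0.442% to 0.459% on leaving out a mouse. The ratio of Col3a1 to Col1a1 changed side from 0.972 to 1.55 with the longest transcript or with protein-coding transcripts and to 1.45 with no length scaling, and ranged from 0.917 to 1.01 on leaving out a mouse, 1.01 being the value without mouse 6. That of Col4a1 to Col4a2 ranged from 0.979 to 1.06, 0.979 being the value without mouse 4. Leaving out a mouse gave 2.09 to 2.26 for Col1a1 to Col1a2, 0.757 to 0.874 for Col4a3 to Col4a4, 0.834 to 0.893 for Col5a1 to Col5a2 and 2.53 to 2.67 for Col6a1 to Col6a2. The causes of these changes were not tested, except that the length changes follow from the annotated exon lengths. No paired analysis was possible because all mice belong to 1 group.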

Other observations

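Of the 20 other protein-coding genes with at least 20 GGN triplets in a row, a set chosen by sequence after the family was described, Sftpd, the surfactant collectin, had a longest run of 59 triplets and stood at 1639, 1630 and 1718 CPM. C1qb, a chain of complement C1q made by macrophages, had 29 triplets and 509, 312 and 419 CPM, and Msr1, a macrophage scavenger receptor, 25 triplets and 57.5, 39.5 and 43.3 CPM. Marco, another macrophage scavenger receptor, had the longest run of these genes, 81 triplets, and 76.0, 45.8 and 87.8 CPM, lowest in mouse 5.

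Other marker lists gave these values. Cardiac muscle markers summed to 316.3, 148.0 and 325.0 CPM, adipocyte markers to 58.3, 25.4 and 55.8 CPM, and Schwann cell and nerve markers to 280.6, 385.2 and 248.4 CPM, of which Pmp22 alone made up 254, 372 and 233 CPM. Club cell markers summed to 8989, 24520 and 21710 CPM, with 4 of 4 lowest in mouse 4. Cartilage markers summed to 40.9, 38.0 and 47.2 CPM.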
